A study of Mus musculus with 14 samples.

Results

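NRF2 target genes were examined as 10 rows of the deposited expression table, taken by gene symbol because they are classical targets of the transcription factor NRF2, across all 14 libraries of the series. The members were Nqo1, Hmox1, Gclc, Gclm, Slc7a11, Txnrd1, Srxn1, G6pdx, Prdx1 and Osgin1. They are 10 of the 19940 genes in the table, each has 1 row, and all 10 are among the 12096 genes that passed the filter on low values and were tested. The libraries came from monocyte-derived macrophages that had entered the central nervous system and were sorted at peak disease in EAE (experimental autoimmune encephalomyelitis), in which immune attack on myelin is induced in mice. Lethally irradiated hosts carried an equal mixture of 2 donor marrows. The wt group (7 libraries) holds macrophages of CD45.1 donors, for which the titles name no Cre or catalase allele. The mCAT group (7 libraries) holds macrophages of CD45.2 donors with 1 CCR2creERT2 allele, a tamoxifen-inducible Cre at the Ccr2 gene, and 1 mcat lsl allele, a Cre-dependent catalase directed to mitochondria. Tamoxifen is the labelled treatment of both groups, so it separates no libraries. The catalase allele depends on Cre made from Ccr2, and the labels state no share of macrophages that recombined it. They also state no age and no host strain.

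NRF2, encoded by Nfe2l2, is held in the cytosol and destroyed through KEAP1, a sensor protein whose cysteines react with oxidants and electrophiles. When KEAP1 is modified, NRF2 reaches the nucleus, pairs with small MAF proteins and binds antioxidant response elements. BACH1, a heme-sensitive repressor, competes for the same elements. Targets include the enzymes that make glutathione, the thioredoxin and peroxiredoxin systems, suppliers of NADPH and the enzymes that break down heme and quinones. Catalase removes hydrogen peroxide, and the series asked how macrophages that carry it in mitochondria differ from wt macrophages of the same lesions.

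Short stretches of promoter are shown for the members in which the core of the antioxidant response element, which NRF2 binds, was found. RefSeq promoter windows of build GRCm38.p6, each of 300 bases and running from upstream of a gene start into its first transcribed bases, were found for 8 of the 10 members. They were searched on both strands for TGACNNNGC. The core occurred in 5 of these 8 members and in 13.99% of all 27025 genes with such windows. By window it occurred in 5 of the members' 10, and in 12.4% of all 32851. Each stretch reads 5′ to 3′ on the strand of the gene. Capitals mark the core, which in all 5 reads on the opposite strand and so appears as its reverse complement.
Gclm: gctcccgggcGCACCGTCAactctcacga
Prdx1: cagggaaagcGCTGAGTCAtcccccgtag
Txnrd1: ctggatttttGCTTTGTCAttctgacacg
G6pdx: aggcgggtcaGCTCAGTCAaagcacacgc
Srxn1: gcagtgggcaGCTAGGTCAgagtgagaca
They lie at chr3:122245413-122245441 (plus strand, Gclm), chr4:116685456-116685484 (plus strand, Prdx1), chr10:82859104-82859132 (plus strand, Txnrd1), chrX:74428919-74428947 (minus strand, G6pdx) and chr2:152105542-152105570 (plus strand, Srxn1). The core starts 134 bases before the gene start in Gclm, 133 in Prdx1, 92 in Txnrd1 and 57 in G6pdx, and at base 29 of the transcribed part in Srxn1. In Prdx1 it overlaps a match to TGANTCA, the motif of AP-1, a match to which occurs in 7.81% of all windows. A match is a run of letters and says nothing of binding in these macrophages, and elements outside the window were not searched.

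Estimated depth ran from 16.7 M reads in wt 7 to 47.0 M in mCAT 1, and these reads carry no molecular identifiers. All 8 macrophage and monocyte markers were present in every library, with Cd68 from 30599 to 97368 normalised counts, the unit in which levels are given here. The microglia genes Tmem119 and P2ry12 reached 550.5 to 3500.3 and 563 to 1453. Summed neutrophil markers ran from 6209 to 9015 in wt and from 5932 to 14473 in mCAT. Of the 8 listed neutrophil genes, Ngp (2908.5), Ltf (1291.0), Camp (392.6) and S100a9 (1285.5) were highest in mCAT 3. The others were highest in other libraries, and the part of these genes in the members' values was not tested. Library wt 1 stood apart in several members and is described below. Libraries of each genotype share the stem of a library code in 6 pairs, which were taken as pairs (wt 1 and mCAT 3 have no partner). The codes also fall into 2 series, C1 (8 libraries) and C2 (6 libraries), whose meaning the labels do not give. Because these are bulk libraries, fewer expressing cells and less RNA per cell cannot be told apart in any value below.

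None of the 10 NRF2 targets passed the test between mCAT and wt macrophages. Over all genes, 0.198% of those tested passed an adjusted p of 0.05 by limma (0.0827% higher and 0.116% lower in mCAT), and 5.37% had an unadjusted p under 0.05, a level that 0 members reached. The median log2 difference of the members, mCAT minus wt on the deposited scale, was 0.12, beside -0.0012 over all genes tested, and 6 of the 10 lay above 0. Without wt 1, a library described below, this median was 0.0020 and 5 of the 10 lay above 0. With the 6 pairs as blocks the median of the members was 0.07, again 0 were called, and 0.322% of all genes were. An unadjusted p under 0.05 with pairing was reached by 0 members and by 9.23% of all genes. Adjusted p ranged from 0.878 to 0.974 without pairing and from 0.610 to 0.942 with it. Within single pairs, 2 of the 10 members were higher in mCAT for wt 2 and mCAT 1, and 5 to 7 of the 10 in each of the other 5 pairs. The groups of 7 overlapped for each member, while 0.240% of all genes tested had groups that did not overlap. In exact permutation tests of 7 against 7, p ran from 0.224 for G6pdx to 0.718 for Srxn1 over the 10 members. In exact sign-flip tests of the 6 pairs it ran from 0.219 for Prdx1 to 0.781 for Srxn1, where 0.0312 is the smallest that 6 pairs allow. A missed threshold does not show equal levels, so each interval is given with its gene below.

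**Figure D1:**
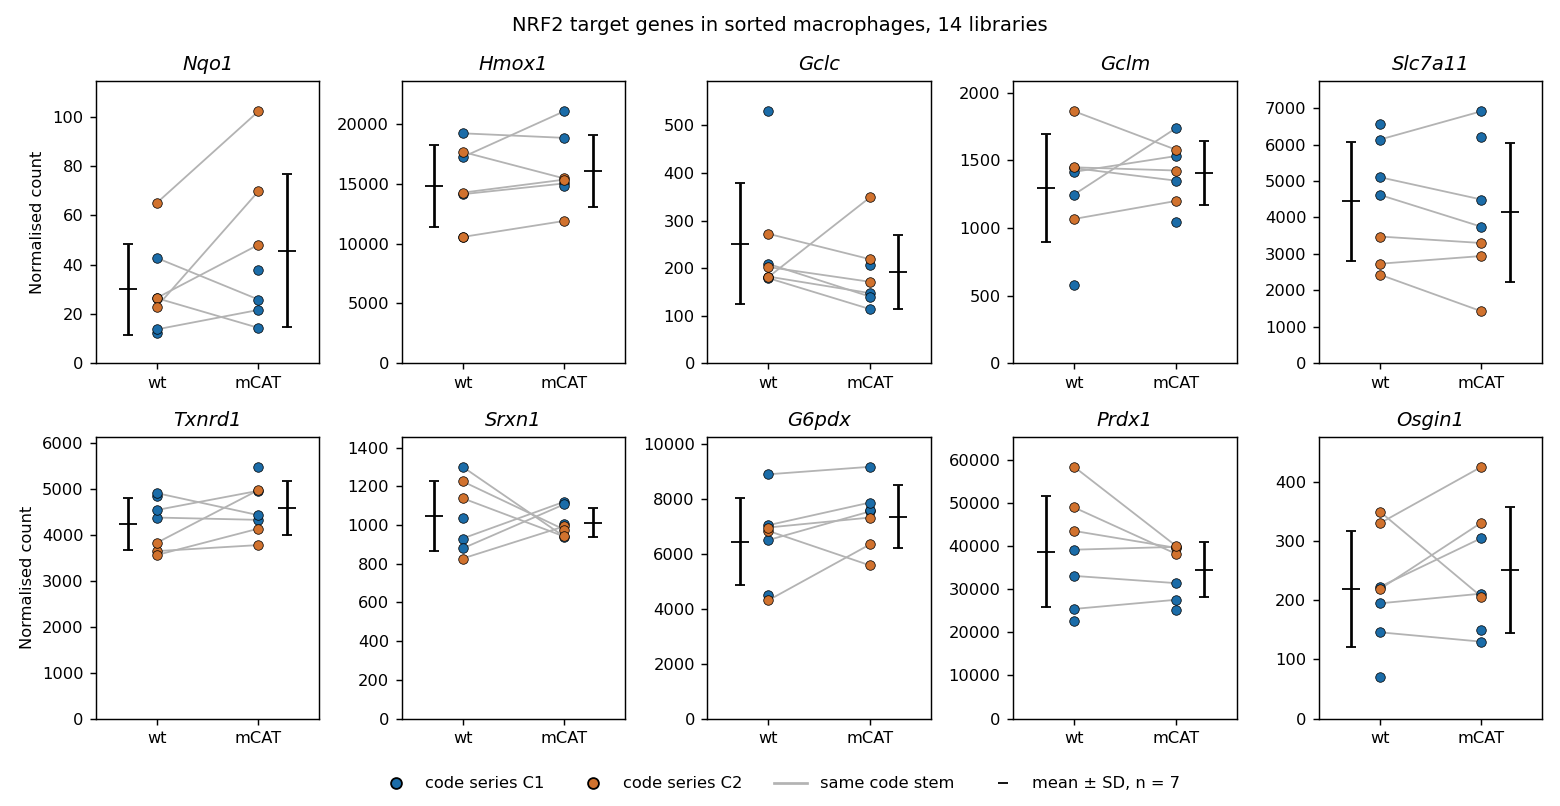
Normalised counts (vertical axes, starting at 0) of the 10 NRF2 target genes in 7 wt and 7 mCAT libraries, with points coloured by code series, grey lines joining libraries of 1 code stem, and black marks for the mean ± SD (n = 7). The genotypes overlap in every panel, and in Slc7a11 all 6 C2 libraries lie below all 8 C1 libraries.

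Genes of glutathione synthesis showed no call. Over the 14 libraries the catalytic and modifier subunits of the same enzyme had opposite signs, but without wt 1 both differences were negative. Slc7a11 (ENSMUSG00000027737, chromosome 3) encodes the cystine importer that feeds glutathione synthesis. Its lowest, median and highest values were 2429, 4621 and 6579.7 in wt and 1423, 3745 and 6919 in mCAT. The ranges overlapped widely, with mCAT reaching lower (mCAT 6), and in both groups the 3 lowest libraries were those of series C2. The mean was 4440 ± 1625 in wt and 4147 ± 1907 in mCAT (SD, n = 7 each), with a log2 difference of -0.15 (95% interval -0.80 to 0.49, adjusted p = 0.954). Within the pairs, where the difference was -0.17 (-0.40 to 0.07), Slc7a11 was lower in mCAT in 4 of 6. The longest transcript of Slc7a11 in GENCODE M21 holds a stretch of 585 bases that is 92.5% identical to the tubulin gene Tuba1b. The tubulin genes Tuba1c (93.6%) and Tuba1a (93.4%) match over shorter stretches. Mean normalised counts were 31876 for Tuba1b, 16965 for Tuba1c and 3137 for Tuba1a, against 4294 for Slc7a11. The other matching genes in the table were scarce, with means of at most 18.4 (Gm3226). How reads of these stretches were divided is uncertain.

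Gclc (ENSMUSG00000032350, chromosome 9) encodes the catalytic subunit of glutamate-cysteine ligase, the first and rate-limiting enzyme of glutathione synthesis. It measured 179, 202 and 530.0 (lowest, median, highest) in wt and 114, 171 and 349 in mCAT. The highest wt value belongs to wt 1 and the highest mCAT value to mCAT 5, and each stands well above the rest of its group. Means were 251 ± 127 and 192 ± 78.3 (SD, n = 7 each), with a log2 difference of -0.24 (-0.65 to 0.17, adjusted p = 0.882). Without wt 1 the difference was -0.09 (-0.42 to 0.24). Gclc was lower in mCAT in 5 of 6 pairs, and the exception was the pair of wt 5 and mCAT 5 (181 and 349). Gclm (ENSMUSG00000028124, chromosome 3) encodes the modifier subunit, which raises the activity of the enzyme. Its values were 576, 1415 and 1864 in wt and 1042, 1425 and 1738 in mCAT. The medians differed little, and the lowest value was that of wt 1. The log2 difference was 0.16 (-0.23 to 0.55, adjusted p = 0.911), which became -0.0022 (-0.28 to 0.28) without wt 1.

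Among the members of the thioredoxin system, Txnrd1 and Srxn1 showed small differences with narrower intervals than Prdx1. Txnrd1 (ENSMUSG00000020250, chromosome 10) encodes the cytosolic thioredoxin reductase, which uses NADPH to keep thioredoxin reduced. It measured 3564, 4380 and 4912 in wt and 3780.3, 4431 and 5485 in mCAT (lowest, median, highest). Its highest value was 1.54 times its lowest, the smallest such ratio among the 10 members. Means were 4247 ± 564 and 4587 ± 584 (SD, n = 7 each), with a log2 difference of 0.11 (-0.13 to 0.35, adjusted p = 0.899). On leaving out 1 library this difference ran from 0.0655 (without mCAT 3, which held the highest value) to 0.1527 (without mCAT 5). Srxn1 (ENSMUSG00000032802, chromosome 2) encodes sulfiredoxin, which repairs peroxiredoxins that peroxide has overoxidised. It spanned 827 to 1301 in wt, with a median of 1039, and 940.3 to 1120.4 in mCAT, with a median of 993. The mCAT libraries lay inside the wt range, with an SD of 73.8 against 180.2. The log2 difference was -0.03 (-0.26 to 0.20, adjusted p = 0.974), and the 6 pairs split 3 against 3.

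Prdx1 (ENSMUSG00000028691, chromosome 4) encodes an abundant cytosolic peroxiredoxin that reduces hydrogen peroxide. It measured 22563, 39157 and 58371 in wt and 25107, 38223 and 40084 in mCAT. The medians were close, while the 3 highest libraries were the wt libraries of series C2. Means were 38722 ± 12803 and 34537 ± 6395 (SD, n = 7 each), with a log2 difference of -0.12 (-0.54 to 0.31, adjusted p = 0.944). In the C2 pairs Prdx1 stood at 43506, 48948 and 58371 in wt against 39592, 38223 and 40084 in mCAT. All 3 C2 pairs were thus lower in mCAT, as was 1 of the 3 C1 pairs. Without pairing, the difference between the series in this genotype effect was -0.40 for Prdx1 (-1.03 to 0.23). Limma's test of it called 0 of all genes, with 103 of them and 0 members at an unadjusted p under 0.05. With the code stem as a block the test again called 0 of all genes, with 317 of them and 0 members under that level. Processed pseudogenes of 97.5% and 98.3% identity, Gm7204 and Gm21399, had means of 2.31 and 3.29. Another, Gm15974 (90.9%), has no row in the table. These are values after reads were assigned, so they cannot show how many pseudogene reads were counted as Prdx1.

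The members of NADPH supply and of heme and quinone breakdown, G6pdx, Hmox1 and Nqo1, gave differences above 0, none of which passed. G6pdx (ENSMUSG00000031400, chromosome X) encodes glucose-6-phosphate dehydrogenase, the entry enzyme of the pentose phosphate pathway, which supplies NADPH. Its values were 4302, 6824 and 8881 in wt and 5569.85, 7531 and 9154 in mCAT (lowest, median, highest). The wt range was wider at the low end, where wt 6 and wt 1 lie. The log2 difference was 0.21 (-0.12 to 0.54), and G6pdx was higher in mCAT in 5 of 6 pairs. Its adjusted p, 0.878, was the smallest of the members without pairing. Its exons overlap those of Ikbkg on the opposite strand over 418 bases, and the library method keeps no strand, so those reads cannot be assigned with certainty.

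Hmox1 (ENSMUSG00000005413, chromosome 8) encodes heme oxygenase-1, the inducible enzyme that opens heme and releases iron. It measured 10548, 14270.5 and 19242 in wt and 11903, 15363 and 21089.8 in mCAT. The mCAT values were shifted by less than the spread of either group. Means were 14814 ± 3436 and 16075 ± 2997 (SD, n = 7 each), with a log2 difference of 0.13 (-0.21 to 0.47, adjusted p = 0.916). The pairs gave a narrower interval, 0.07 (-0.11 to 0.25), with 4 of 6 higher in mCAT.

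Nqo1 (ENSMUSG00000003849, chromosome 8) encodes a quinone reductase that is widely used as a readout of NRF2 activity, and here it was scarce. It measured 12.04, 26.4 and 65.1 in wt and 14.3, 37.8 and 102 in mCAT. The highest values were those of mCAT 5, mCAT 7 and wt 5, all of series C2. The mean was 1.53-fold higher in mCAT (29.9 ± 18.5 against 45.7 ± 31.2, SD, n = 7 each), the largest ratio of the 10 members. Its log2 difference was 0.20 (-0.16 to 0.55, adjusted p = 0.890) on the deposited scale, which compresses low counts. On log2 of the normalised count plus 1 it was 0.53 (-0.47 to 1.53, adjusted p = 0.889), so a change of more than 2-fold in Nqo1 lies within the error. Osgin1 (ENSMUSG00000074063, chromosome 8) encodes a growth inhibitor induced by oxidative stress. It measured 70.9, 219 and 349 in wt and 129.8, 211 and 425 in mCAT. The medians were almost equal, and the lowest value again belongs to wt 1. The log2 difference was 0.15 (-0.32 to 0.62, adjusted p = 0.938), and 0.24 (-0.48 to 0.96) with the pseudocount of 1. Without wt 1 it was 0.0061 (-0.41 to 0.42) on the deposited scale.

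**Figure D2:**
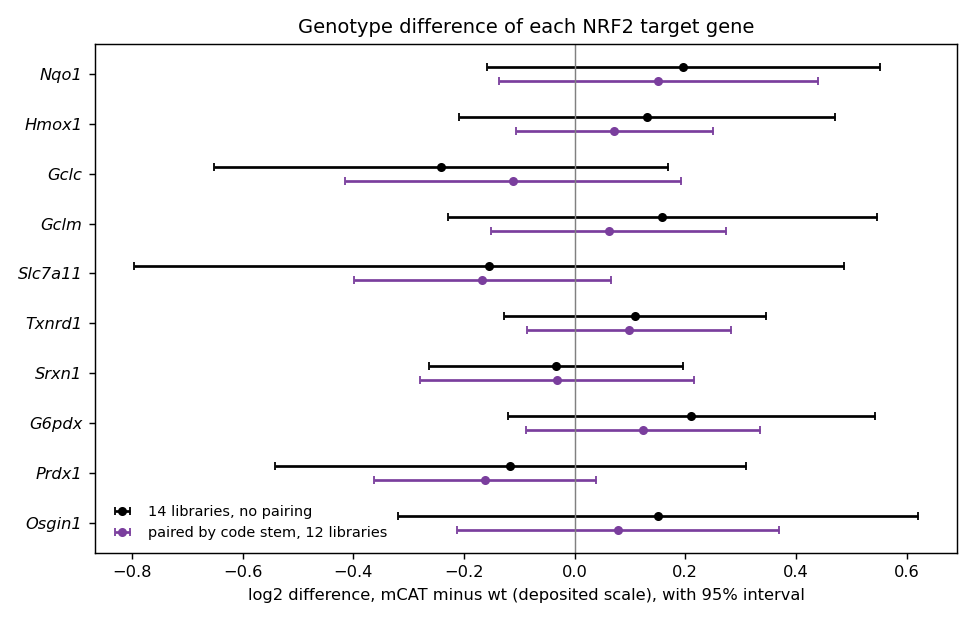
Log2 difference of each NRF2 target gene, mCAT minus wt on the deposited scale, with 95% intervals, from 14 libraries without pairing (black) and with the code stem as a block, to which 6 pairs contribute (purple). All 20 intervals include 0, and pairing shortens that of Slc7a11 from -0.80 to 0.49 down to -0.40 to 0.07.

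Library wt 1 held the lowest value of 5 members and the highest of 1. Nqo1 (12.04), Hmox1 (10548), Gclm (576), Prdx1 (22563) and Osgin1 (70.9) had their minimum there, and Gclc (530.0) its maximum. Its median deviation from the members' means was -0.46 on the log2 scale, against -0.08 to 0.14 in the others. The other 13 libraries held the minimum of at most 1 member each. Summed markers of some other cells also stood at an end of the wt range in wt 1. Summed red cell markers, 5 of 6 listed being in the table, were 13969 in wt 1 and 361 to 13969 over the wt libraries, against 417 to 7570 in mCAT (7569.8). Hba-a1 and Hba-a2 made up most of this sum. Summed T cell markers were 759 in wt 1, the top of the wt range that began at 216, against 132 to 289 in mCAT. Summed microglia markers were lowest of all in wt 1, at 2849. Summed neuron markers were 491 in wt 1, the top of the wt range that began at 138, against 113 to 576 in mCAT. Of the neuron genes only Snap25 was highest of all libraries there. The sums of neutrophil (8055), B cell (310), dendritic cell (366), astrocyte (3685), oligodendrocyte (6279) and endothelium (4147) markers lay inside the wt range in wt 1. This library also had the most genes with at least 10 normalised counts (12780.0) and the lowest total (32.8 M normalised counts). The part of all these in the values of wt 1 was not tested.

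The variance of the NRF2 targets over the 12 paired libraries was divided among the 6 code stems, the 2 genotypes and the rest. Stems held a median of 73.1% for the members and genotype 3.27%, near the 65.5% and 3.83% over all genes tested. With 6 stems and 2 genotypes, stems hold the larger share by construction, so these medians say nothing particular to the members. Slc7a11 had the largest share between stems (91.4%), followed by Hmox1 (90.6%) and Prdx1 (81.4%). Hmox1 shows this in single values, with 19242 and 18861 in the pair of wt 2 and mCAT 1 but 10561 and 11903 in the pair of wt 6 and mCAT 6. Srxn1 was the exception, with 25.3% between stems and 73.8% left within them. The share of genotype reached 9.40% at most, in Txnrd1.

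**Figure D3:**
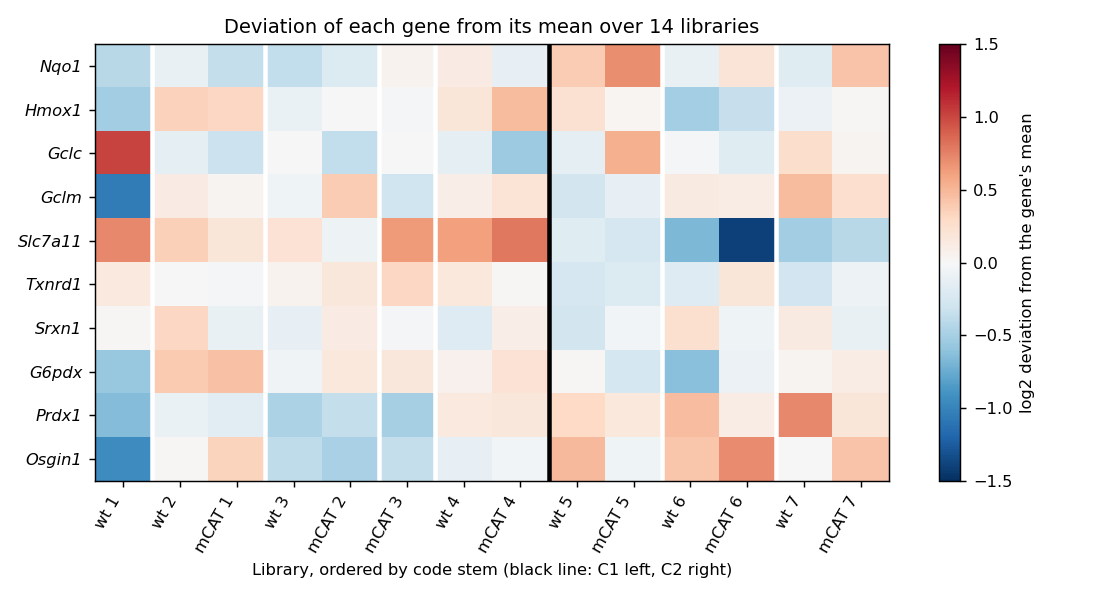
Deviation of each NRF2 target gene (rows) from its own mean on the deposited log2 scale in each of the 14 libraries (columns), ordered by code stem with white lines between stems and a black line between series C1 and C2. Colours run from blue (below) to red (above), wt 1 at the left edge departs in most rows, and Slc7a11 turns from red in C1 to blue in C2.

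Between the 2 code series, Slc7a11 was lower and Prdx1 higher in C2. Slc7a11 spanned 3745 to 6919 in C1 (median 5623) and 1423 to 3477 in C2 (median 2835), with no overlap, as for 2.25% of all genes tested. Its mean was 2.02-fold lower in C2, a log2 difference of -1.003 (-1.38 to -0.62, adjusted p = 0.0037). Prdx1 spanned 22563 to 39805 in C1 and 38223 to 58371 in C2, with a log2 difference of 0.56 (0.25 to 0.88, adjusted p = 0.0315). The test called 7.47% of all genes, so 2 of 10 members is to be read against that share. The count behind it, 903 genes, ran from 396 (without wt 6) to 1544 (without wt 5) on leaving out 1 library. It also moved by over 1.5 times without wt 4 (566), wt 7 (406), mCAT 3 (597), mCAT 4 (543), mCAT 5 (1365), mCAT 6 (441) or mCAT 7 (421). With libraries rescaled to equal totals, the split over all genes moved from 521 higher and 382 lower in C2 to 349 higher and 1066 lower. Slc7a11 (-1.13) and Prdx1 (0.43) kept their calls there, and Txnrd1 gained one (-0.37, adjusted p = 0.0328, against -0.25 and 0.120 as deposited). Osgin1 (70.9 to 305 in C1, 206 to 425 in C2, medians 172 and 330) and Nqo1 (C1 mean 24.3, C2 mean 55.8) overlapped between the series. Their adjusted p were 0.0620 and 0.0882. These p-values treat partners of 1 stem as separate samples. With the mean of each stem as 1 sample (5 against 3), 0 members passed by limma. An unadjusted p under 0.05 was reached there by 4 of the 10 members and by 1876 of the 12096 genes tested. The differences of Slc7a11 and Prdx1 were -1.05 (adjusted p = 0.104) and 0.63 (adjusted p = 0.272). In that setting 2% of all genes were called (1.26% higher and 0.744% lower in C2). The call of Prdx1 also ended on leaving out any 1 of 7 libraries, with an adjusted p of up to 0.0954 without wt 7. The others were wt 3, wt 6, mCAT 2, mCAT 3, mCAT 6 and mCAT 7. Markers of some cell types moved with the series. Summed microglia markers (7 of 8 listed genes in the table) were 2849 to 5820.0 in C1 and 7893 to 16030 in C2 (16029.9), largely through Olfml3 and Tmem119. The macrophage and monocyte sum (8 of 8 genes in the table) was at most 1.449e+06 in C1 and at least 1.712e+06 in C2, largely through Lyz2. Single genes of other lists that did not overlap were Slc1a2 of the astrocyte list (810 to 1544 in C1, 162 to 507 in C2) and Cxcr2 of the neutrophil list (11.2 to 50.7 in C1, at most 9.37 in C2), while the sums of those 2 lists overlapped. P2ry12 (563 to 1254 and 1034 to 1453) and Sall1 (1.58 to 34.3 and 8.27 to 36.2) overlapped between the series, and no listed marker was at 0 in all libraries. The part of these markers in the members' values was not tested.

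The members did not move as 1 group over the libraries. After removal of the genotype means, 21 of the 45 pairs of members had a Pearson's r above 0 over the 14 libraries, with a median of -0.03 and a range from -0.74 to 0.83. Of the 45 pairs 1 passed the Benjamini-Hochberg adjustment. Hmox1 and G6pdx had an r of 0.828 (permutation p = 0.00043, adjusted 0.01935) and a Spearman's rho of 0.820 (permutation p = 0.00066, adjusted 0.0297). Their r was 0.864 within C1, 0.696 within C2, 0.865 over the means of the 8 stems and 0.818 without wt 2 and mCAT 4, the libraries farthest from the median of Hmox1. Without wt 1 it was 0.781. On leaving out wt 1 or wt 2, 0 of the 45 pairs passed the adjustment. Libraries of 1 stem are not independent, so these p-values are too small.

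The next relations missed the adjusted threshold. Txnrd1 and Prdx1 ran in opposite directions (r = -0.745, rho = -0.741, permutation p = 0.00244 and 0.00334, adjusted 0.0549 and 0.0751), but only weakly so within C1 (-0.451) and C2 (-0.239). Without mCAT 3 and mCAT 5, farthest from the median of Txnrd1, r was -0.725. Prdx1 and Osgin1 had an r of 0.719 and a rho of 0.679 (permutation p = 0.00425 and 0.00917, adjusted 0.0637 and 0.103). That relation was 0.724 within C1 and -0.615 within C2, and 0.549 without wt 1 and wt 3. The 2 subunit genes Gclc and Gclm had an r of -0.642 and a rho of -0.345 (permutation p = 0.0206 and 0.228, adjusted 0.134 and 0.570). Their r was -0.966 within C1 and 0.124 within C2. Without wt 1 it was -0.165, and without wt 1 and mCAT 5 it was 0.03, so the relation rests on those libraries.

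**Figure D4:**
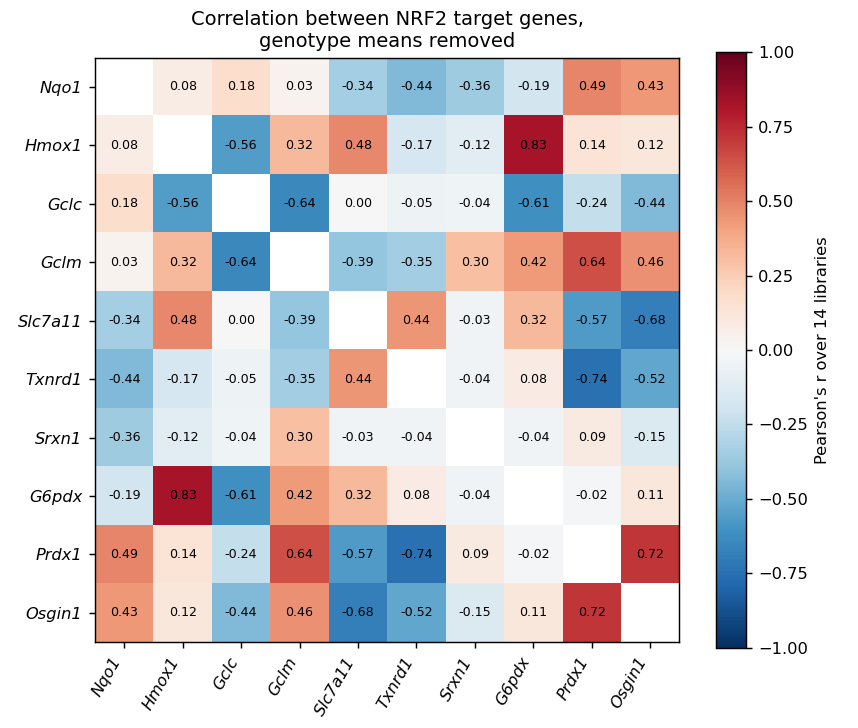
Pearson's r between each pair of the 10 NRF2 target genes over 14 libraries after removal of the genotype means, with r printed in each cell and coloured from blue (-1) to red (1). Positive and negative values are mixed, with Hmox1 and G6pdx the highest at 0.83 and Txnrd1 and Prdx1 the lowest at -0.74.

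Each member was also compared with 12074 tested genes outside the group, over the 14 libraries and with genotype means removed, as a description. The pattern most like that of Slc7a11 was Inhba (r = 0.959), which encodes a subunit of activin A, followed by the glutamate transporter gene Slc1a2 (0.938), which is also a marker on the astrocyte list. Ncln (0.9497) was among the 2 genes most like G6pdx. Hmox1 was closest to Prss22 (0.920), which was scarce, and to Cyb5r3 (0.918), a cytochrome b5 reductase gene. Osgin1 was closest to Zfp982 (0.969) and Rsph9 (0.945), Gclm to Ube2g1 (0.945) and Arl2bp (0.913), and Gclc to Blm (0.938) and Map3k3 (0.924). Without wt 1 the likeness of Gclm to Arl2bp was 0.746. Prdx1 was closest to the gene ENSMUSG00000067870 (0.928) and Rnf138 (0.926), and Nqo1 to Nudt3 (0.890) and Brk1 (0.873). The lowest of these values were those of Txnrd1, with Wbp11 (0.838) and Rbm6 (0.838), and Srxn1, with Rnf44 (0.843) and Eeig2 (0.724). The libraries share stems and scaling, and the highest of so many values is high by selection.

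Per length, Prdx1 and Hmox1 were the most abundant members and Nqo1 the least. Normalised counts per kilobase of the longest annotated coding transcript averaged 15967 ± 4342 for Prdx1 and 9844 ± 2018 for Hmox1 (SD over 14 libraries), followed by 2595 ± 530 for G6pdx and 1219 ± 160 for Txnrd1 (159.8). Below these lay Slc7a11 (465.5 ± 185), Srxn1 (366 ± 47.5), Gclm (242 ± 57.3), Osgin1 (117 ± 49.6), Gclc (64.7 ± 31.0) and Nqo1 (24.3 ± 16.7). Hmox1 and G6pdx had ranges that did not overlap, and so had G6pdx and Txnrd1, and Txnrd1 and Slc7a11. The ranges of Prdx1 and Hmox1 overlapped, as did those of each neighbouring pair from Slc7a11 down to Nqo1. Lengths are from GENCODE M21, and the transcripts actually present were not measured, which bears most on Slc7a11 with its length of 9223 bases.

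The regulators of NRF2 were all expressed, and none of 17 passed the test between genotypes. Nfe2l2, the gene of NRF2 itself, averaged 16006 ± 3335 in wt and 17645 ± 2984 in mCAT (SD, n = 7 each), with a log2 difference of 0.15 (-0.17 to 0.46, adjusted p = 0.897). Keap1 averaged 1478 ± 319 and 1594 ± 161, a difference of 0.12 (-0.15 to 0.39). Bach1, the repressor gene, averaged 494 ± 87.3 and 555 ± 138, a difference of 0.13 (-0.17 to 0.43). These 3 genes at the head of the pathway thus differed by less than their spread between libraries. The ubiquitin ligase genes that act with KEAP1 had differences of -0.38 (Cul3) and -0.21 (Rbx1), and the other ligase gene Btrc -0.05. The small MAF genes Mafg, Maff and Mafk stood at -0.09, -0.21 and 0.14. Other regulators lay between -0.18 and 0.28, among them Nfe2l1 (0.28), the NRF1 gene, Gsk3b (0.22), Rxra (0.21), Sqstm1 (0.14), Dpp3 (0.13), Creb1 (0.05) and Crebbp (-0.18). Nfe2l1 averaged 1241 ± 253 and 1515 ± 156. Without pairing it was the 1 gene of this list under an unadjusted p of 0.05 (adjusted p = 0.878 by limma), and it was higher in mCAT in 4 of 6 pairs. Under the stem block these were instead Gsk3b (0.21, higher in 6 of 6 pairs, adjusted p = 0.514) and Rxra (0.21, 5 of 6, adjusted p = 0.541).

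Wider lists of antioxidant and detoxification genes also held no called member between genotypes. They comprised 21 tested of 30 listed genes for glutathione, 14 of 14 for thioredoxin, 8 of 9 for NADPH, 11 of 13 for heme and iron, and 14 of 18 for other detoxification. Their medians were -0.02, -0.04, 0.10, -0.01 and 0.02 on the log2 scale, beside -0.0012 over all genes. Together with the regulators, 0 of 85 passed, without pairing or with it. An unadjusted p under 0.05 was reached by 4 and 8 of them, near the 5.37% and 9.23% of all genes tested. Without pairing, the thioredoxin list held Prdx2, a cytosolic peroxiredoxin gene (6749 ± 840 in wt, 5336 ± 650 in mCAT, log2 difference -0.33, adjusted p = 0.878 by limma), and Txn1, the thioredoxin gene (22597 ± 2745 and 18744 ± 3035, -0.28). Prdx2 was lower in mCAT in 6 of 6 pairs, as 5.39% of all genes tested had 1 direction in 6 of 6, and its adjusted p with pairing was 0.314. Prdx5, another peroxiredoxin gene, was lower in 6 of 6 pairs as well (paired difference -0.21, adjusted p = 0.483). In the heme list, Blvrb, which encodes a biliverdin reductase, averaged 4483 ± 692 and 3586 ± 650 (-0.32, adjusted p = 0.878) and was also lower in 6 of 6 pairs. Slc40a1, the iron exporter gene, had the next smallest p there (35.4 ± 25.9 and 21.8 ± 21.2, -0.28). Elsewhere the genes nearest to the threshold were Abcc3 (0.69) and Gsr (0.33) for glutathione, Idh1 (0.24) and Pgd (0.11) for NADPH, and Aldh1a1 (-0.22) and Pir (-0.27) for other detoxification, each given by its log2 difference. Their adjusted p was 0.878 or more without pairing. With pairing Abcc3 stood at 0.60 (adjusted p = 0.261, higher in 5 of 6 pairs), Glrx at -0.18 (0.513, lower in 6 of 6) and Slc40a1 at -0.34 (0.497, lower in 4 of 6). Gsk3b, Rxra, Prdx5 and Glrx are named here after their paired values were seen.

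**Figure D5:**
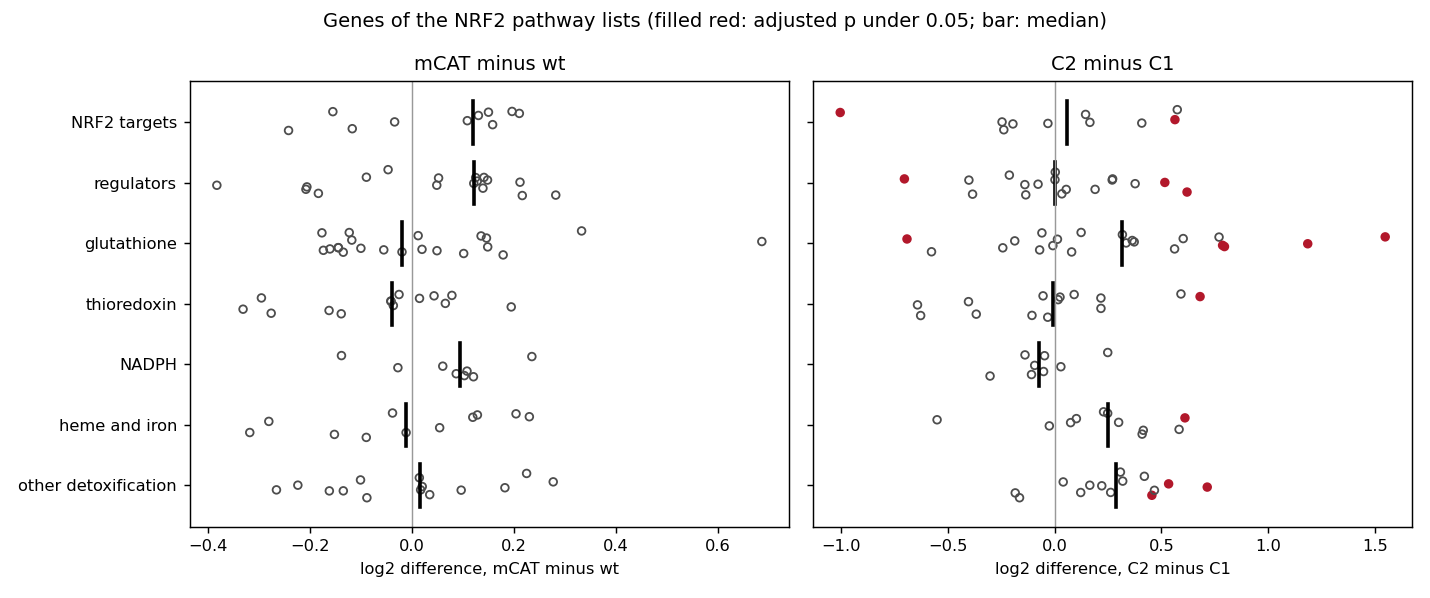
Log2 difference of each tested gene (points) in the NRF2 target, regulator and wider pathway lists (rows), for mCAT minus wt (left) and series C2 minus C1 (right), with black bars for list medians and filled red points for an adjusted p under 0.05 with libraries as samples. No point is filled on the left, and 15 are filled on the right, among them Slc7a11 at -1.003 and Prdx1 at 0.56.

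Between the code series, 13 of the 85 wider genes passed, 11 higher and 2 lower in C2, where 4.31% and 3.16% of all genes tested were called in these directions. With equal totals 20 passed, 10 in each direction, where 349 of all genes tested were called higher and 1066 lower. Leaving out 1 library gave 5 (without wt 6 or wt 7) to 26 (without wt 5, 19 higher and 7 lower). Calls over all genes were 396 without wt 6, 406 without wt 7 and 1544 without wt 5. The count of wider genes also moved by over 1.5 times without wt 4 or mCAT 4 (8), mCAT 5 (21) and mCAT 6 or mCAT 7 (6). Mafk, a small MAF partner of NRF2, averaged 2297 ± 248 in C1 (n = 8) and 1376 ± 238 in C2 (n = 6), with no overlap (log2 difference -0.70, adjusted p = 0.0011). Glrx, the glutaredoxin gene, was the other lower gene (-0.69). Higher in C2 were Sqstm1 and Rxra among the regulators, Gpx3, Gstm2, Gstm5 and Abcc3 of the glutathione list, Prdx4, Slc40a1, and the detoxification genes Cbr1, Cbr3 and Ephx1. Gpx3 had the largest difference (1163 ± 541 in C1, 4151 ± 2528 in C2, 1.55 on the log2 scale). With the mean of each stem as 1 sample, 3 of the 13 still passed, namely Mafk (adjusted p = 0.0273), Slc40a1 (0.0282) and Gstm2 (0.0466). Of all genes tested, 2% were called in that setting. The macrophage and microglia marker sums given above differed between the series in the same libraries, and their part was not tested.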

How the data were processed

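Smart-seq2 RNA sequencing of 7 wt and 7 mCAT libraries was processed with FastQC, fastp and Salmon on GRCm39, per the submitters' processing notes. No version, annotation or gene filter was given in the sources used here. Although titled raw counts, the deposited values are on a log2 scale with 1 lowest value shared by all libraries, the form of a variance-stabilising transformation. Inverting that form gave normalised counts. The most frequent low value of a library was taken as 1 read to estimate depth. Then 52.2% to 72.9% of low values lay within 0.15 of whole reads (chance gives 30%), so depth is rough and whole reads were not recovered.

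Genes with at least 10 normalised counts in at least 7 libraries were tested with limma 3.58.1 (R 4.3.3, trend and robust moderation), two-sided, on the deposited log2 values. P-values were adjusted by Benjamini-Hochberg over the whole tested table, and 0.05 was the threshold. The main fit has no pairing. Partners of all 6 code stems, which the library names give, deviated together from their group means (correlations 0.232 to 0.659), and in 5 of the 6 each was the other's best match (not wt 5 and mCAT 5), so paired values stand beside results. The labels do not say that libraries are separate animals, so p-values measure the spread between these libraries. Correlations used 100000 permutations, and the fit was tested on simulated data. Near-identical transcripts were sought by blastn (at least 90% identity over 200 bases) in GENCODE M21.

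Members, lists and rules were chosen with earlier results of these data known. Named were all members and regulators, the 2 smallest p-values of each wider list, its called genes, and the 2 genes most like each member. A few genes that these rules name are not reported here. The alternatives are given in the closing section.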

Additional observations from a re-analysis of the deposited data

Results flagged for a closer look

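In 74 groups of 7 libraries checked (37 named genes, 2 genotypes), 3 held a library whose gap to its neighbour was a large part of the whole range, by a criterion that flags about 1 group in 20 by chance. Gclc was highest in wt 1, with 530.0 normalised counts against 272 in the next wt library, a gap of 0.643 of the range. Gsk3b was lowest in mCAT 5 at 2044 against 2495 (0.607). Creb1 was highest in mCAT 3 at 812 against 669 (0.594).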

How the results depend on the processing

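None of the 10 members passed between genotypes under any of 25 alternatives. The lowest adjusted p was 0.471 (Prdx1, title numbers as a block, where it alone had an unadjusted p under 0.05), and the median difference of the members ran from -0.0064 (that block) to 0.14, with 0.0020 without wt 1. With the code stem as a replicate block 39 genes were called in place of 24, and no call of a member changed. Same-numbered titles 2 to 7 correlated at 0.158 to 0.641, 4 of these 6 pairs being stem pairs, and as a replicate block gave 36 calls. C1 alone gave 15, C2 alone 9, and leaving out 1 library 18 to 25.

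Differences of members turned sign, without a call, in a few settings. In C2 alone Gclc stood at 0.10 and Gclm at -0.0305, and in C1 alone Srxn1 at 0.0187 and Prdx1 at 0.0543. Osgin1 was -0.0374 with title numbers as a block and -0.0086 without wt 1 and wt 7, a setting chosen after seeing the data. Leaving out 1 library gave -0.0022 to 0.25 for Gclm, -0.30 to 0.0661 for Slc7a11 and -0.0816 to 0.0161 for Srxn1.

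Between code series, 2 members were called. This became 0 with the mean per stem (also chosen after seeing the data), 1 without wt 1 and wt 7, and 1 to 3 on leaving out 1 library. Of the 45 correlations 1 passed as deposited, 2 with equal totals, 3 with either pseudocount (1 or 10), 6 in C1 alone, 0 in C2 alone, 0 without wt 1 and wt 7, and 0 to 4 on leaving out 1 library. The causes were not tested.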
